A study of Mus musculus with 21 samples.

Results

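The proteasome subunit genes examined here were the 34 genes that encode the constitutive 20S core particle (Psma1 to Psma7 and Psmb1 to Psmb7, 14 genes) and the main subunits and dedicated assembly factors of the 19S regulatory particle (Psmc1 to Psmc6 and Psmd1 to Psmd14, 20 genes). They were taken by symbol from the 46078 genes of the count table, by a rule that uses no measured value, and 34 of 34 were present, were protein coding and passed the filter on low counts, with 99 to 5707 reads per gene and library. The study removed single amino acids from the diet of mice that lack cystathionine γ-lyase (CSE, encoded by Cth), which cannot make cysteine from methionine, and the liver was profiled by poly(A) RNA sequencing. The 21 libraries were titled as biological replicates. The 6 groups combined a genotype, labelled cse (the Cse knockout, KO below) or WT, with a diet that was complete (CTR), free of cysteine (noCys) or free of tryptophan (noTrp). There were 3 WT CTR, 4 KO CTR, 4 WT noCys, 3 KO noCys, 2 WT noTrp and 5 KO noTrp libraries. All mice were male, at least 9 weeks old and calorie restricted on a defined amino acid diet, in which the depleted forms carried proportionally more of the other amino acids. The study's methods describe the comparison animals as Cse heterozygotes (Cse+/-), although the labels call them WT. The knockout was present in the whole body, on a mixed 129 and C57BL/6 background, and was not restricted to the liver.

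The proteasome is the protease that degrades most short-lived and damaged proteins marked with ubiquitin, and it returns their amino acids to the cell. Its core is a barrel of stacked alpha and beta rings, with the proteolytic sites on Psmb5, Psmb6 and Psmb7 facing the inside, and the regulatory particle that caps it binds ubiquitin chains, removes them and threads the substrate inward with a ring of ATPases, Psmc1 to Psmc6. The subunits are needed in fixed proportions, and their genes are known to be induced together by the transcription factor NRF1 (Nfe2l1) when proteasome activity falls short.

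Libraries held 8889951 to 27230852 counted reads. Levels are given as CPM, reads scaled to a common library total with TMM factors between 0.883 and 1.14, and a gene is said to be called, to rise or to fall when edgeR's quasi-likelihood test gave a Benjamini-Hochberg adjusted p under 0.05 over the 14370 genes tested, from 1 fit of all 21 libraries. Cth was at 108 to 452 CPM in the WT libraries and 6.34 to 14.99 in the KO libraries, without overlap. Both WT extremes were WT noTrp libraries, 452 in replicate 1 and 108 in replicate 2, so that this group of 2 was uneven for Cth. The 6 hepatocyte markers summed to 40091 to 68169 CPM in KO noCys against 93478 to 108183 in WT noCys. Most of the sum was Alb (21622 to 44754 against 63089 to 73113). Apoa1, Ttr, Serpina1a and Pck1 were also lower without overlap, while Cps1 (2561 to 3670 against 2727 to 3035) overlapped. The 3 erythroid markers summed to 112 to 137 against 155 to 308 CPM and the 2 cholangiocyte markers to 1.58 to 2.64 against 2.80 to 6.27, also lower without overlap, and the 5 endothelial and stellate markers to 184 to 211 against 196 to 288, with overlap. Of the last list, Pecam1 (8.82 to 11.8 against 13.0 to 17.6) and Col1a1 (3.61 to 7.20 against 7.81 to 14.2) were lower without overlap, while Dcn, Stab2 and Des overlapped. Of all genes, 18.1% were lower in every KO noCys library than in every WT noCys library. Muscle and adipocyte markers were at or near 0, at most 1.41 CPM summed in any library. For 9 members some exonic bases are shared with another annotated gene, 8 of them on the opposite strand, among them Psmb5 (Mir686) and Psmd9 (Gm26745), whose partners had no reads. In bulk tissue, fewer cells of a type and less RNA per cell cannot be told apart, and the part of these marker differences in the results below was not tested.

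In the liver of WT mice on the complete diet the 34 mRNAs were all expressed, and the core was represented by more mRNA per kilobase of exon than the regulatory particle. Per kilobase of merged exons the median level over the 14 core genes was 44.8 CPM per kilobase and that over the 20 regulatory genes 21.7, a ratio of 2.095 ± 0.149 (SD, n = 3 libraries) when taken library by library. With the length of the principal transcript in place of merged exons, a choice made after seeing the data, the ratio was 2.37 ± 0.0998. The highest levels on the merged-exon scale were those of Psmb4 (109 ± 2.37 CPM per kilobase, SD, n = 3), a structural beta subunit, and Psmb6 (99.0 ± 7.30), which carries the caspase-like site. They were followed by the alpha subunit Psma6 (89.9 ± 3.58) and the ATPases Psmc1 (74.1 ± 3.46) and Psmc5 (71.8 ± 3.29), which lay within 1 SD of each other. When the principal transcript was used, Psmb6 ranked above Psmb4, the core subunits Psma7, Psma4 and Psmb3 followed, and Psma6, Psmc1 and Psmc5 moved to ranks 7, 9 and 13 of 34. The lowest were the assembly chaperones Psmd9 (8.93 ± 1.29) and Psmd5 (3.19 ± 0.29), which are released before the particle is complete. The merged exons of Psmd9 cover 7248 bases and its principal transcript 2597, and on the principal-transcript scale Psmd10 (9.35 ± 1.19), the chaperone known as gankyrin, lay below it. Psmd5 was the lowest of the 34 on both scales.

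Abundant subunit mRNAs with no call between the genotypes are given first. Psmb4 was at 207, 215 and 214 CPM for WT CTR, 195, 237, 206 and 207 for WT noCys and 231, 235 and 233 for KO noCys. Psma6 was at 106, 114 and 113 CPM for WT CTR, 109, 128, 109 and 117 for WT noCys and 116, 99.3 and 95.3 for KO noCys. Psmc5 was at 94.8, 103 and 103 CPM for WT CTR, 95.1, 105, 105 and 93.5 for WT noCys and 98.7, 114 and 107 for KO noCys. The KO noCys values lay within the range of the WT noCys values for Psmb4, while 2 of 3 lay below it for Psma6 and 2 of 3 above it for Psmc5, and none of these genes was called between those groups. The remaining libraries spanned 201 to 225 CPM for Psmb4, 95.5 to 137 for Psma6 and 94.8 to 115 for Psmc5 over KO CTR, WT CTR, WT noTrp and KO noTrp.

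The central comparison was between genotypes on the diet without cysteine, where KO mice can neither eat nor make it. In KO noCys livers 10 of the 34 mRNAs were higher than in WT noCys and 0 were lower, with folds between 1.18 and 1.45. For all 14370 genes the shares were 14.8% higher, 13.4% lower and 28.2% in total. In the regulatory particle 9 of 20 mRNAs rose, while in the core 1 of 14 did. The median log2 fold change was 0.21 over the 20 regulatory genes and 0.04 over the 14 core genes, beside -0.02 over all genes tested. By ring, the 7 alpha subunits had a median of -0.02 with 0 called, the 7 beta subunits 0.12 with 1 called, the 6 ATPases 0.27 with 4 called and the 14 non-ATPases 0.17 with 5 called. In 11 of 34 members every KO noCys library exceeded every WT noCys library, and in 0 was the reverse true, against 19.4% and 18.1% of all genes.

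**Figure D1:**
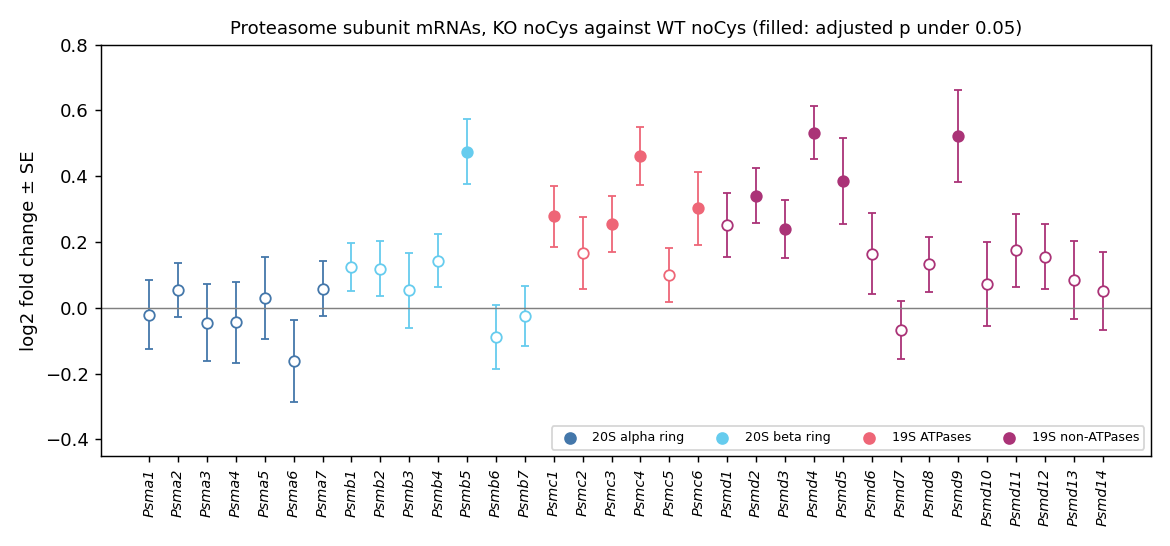
Log2 fold change of each of the 34 subunit mRNAs in KO noCys against WT noCys (vertical axis, error bars are the standard error of the fit), coloured by ring or subunit class. Filled points have an adjusted p under 0.05. The alpha subunits lie around 0, Psmb5 is the filled point among the core genes, and 9 regulatory genes are filled, led by Psmd4 at 0.53.

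Among the catalytic subunits of the core, Psmb5 rose and Psmb6 and Psmb7 did not pass the test. Psmb5, the chymotrypsin-like subunit, was at 60.9, 77.6, 58.0 and 68.1 CPM for WT noCys and 83.2, 96.9 and 95.2 for KO noCys. The 3 KO noCys values were above all 4 WT noCys values (log2 fold change 0.47, SE 0.10, adjusted p = 0.00135). In the other groups only KO noTrp replicate 2 reached into that range, with Psmb5 at 62.3, 66.9 and 59.0 CPM for WT CTR, 73.9, 73.9, 64.9 and 75.3 for KO CTR, 72.8 and 69.8 for WT noTrp and 76.6, 86.1, 77.9, 72.1 and 75.1 for KO noTrp. Psmb6 was at 167, 206, 176 and 179.5 CPM for WT noCys and 171, 169 and 174 for KO noCys, and the KO values lay inside the WT range (log2 fold change -0.09, SE 0.10, adjusted p = 0.525). In the other groups Psmb6 was at 196, 169.9 and 190.3 CPM for WT CTR, 208, 178, 187 and 203 for KO CTR, 200.05 and 205 for WT noTrp and 190.3, 236, 215, 192 and 189.6 for KO noTrp. Psmb7, the trypsin-like subunit, was at 151, 172, 139 and 164 CPM for WT noCys and 164, 150.1 and 148 for KO noCys and stayed within the WT range (log2 fold change -0.02, SE 0.09, adjusted p = 0.87). Elsewhere it was at 153, 167 and 138 CPM for WT CTR, 166, 183, 159.9 and 160.5 for KO CTR, 165 and 144 for WT noTrp and 168, 174, 169, 165 and 172 for KO noTrp. A neighbour on the opposite strand, Nek6, shares 405 exonic bases with Psmb7 and had a higher level in KO noCys, by 0.51 (log2, adjusted p = 0.0326). With library totals alone Psmb6 and Psmb7 had positive values (0.13 and 0.19) and were still not called, while Psmb5 was (0.69). The other 11 core genes had log2 fold changes from -0.16 (Psma6) to 0.14 (Psmb4).

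Of the 6 ATPases that unfold and thread substrates, Psmc4, Psmc6, Psmc1 and Psmc3 rose. Psmc4 was at 82.1, 96.2, 85.9 and 90.8 CPM for WT noCys and 116, 129 and 121 for KO noCys, without overlap (log2 fold change 0.46, SE 0.09, adjusted p = 0.000589). The KO noCys values were the highest of all 21 libraries for this gene, since the other groups held 89.0, 96.4 and 78.3 CPM for WT CTR, 94.2, 101, 97.5 and 99.8 for KO CTR, 93.9 and 82.4 for WT noTrp and 99.9, 104, 88.9, 97.1 and 98.6 for KO noTrp. Psmc6 was at 65.3, 59.4, 58.6 and 57.8 CPM for WT noCys and 69.0, 78.8 and 75.1 for KO noCys (log2 fold change 0.30, SE 0.11, adjusted p = 0.0461). Its KO values were higher than all WT noCys values but not than all libraries, since it was at 59.2, 61.5 and 53.8 CPM for WT CTR, 52.7, 64.7, 57.6 and 56.3 for KO CTR, 77.6 and 51.2 for WT noTrp and 63.2, 59.2, 62.7, 68.3 and 64.5 for KO noTrp in the other groups. Psmc1 was at 126, 133, 148 and 115 CPM for WT noCys and 159, 162 and 153 for KO noCys (log2 fold change 0.28, SE 0.09, adjusted p = 0.0306), and it spanned 131 to 161 in the other groups. Psmc3 was at 114, 132, 127 and 121 CPM for WT noCys and 142, 155 and 144 for KO noCys (log2 fold change 0.25, SE 0.09, adjusted p = 0.0319), with 108 to 148 in the other groups. In both genes the KO noCys values were above all WT noCys values. An antisense neighbour of Psmc3, Slc39a13, shares 215 exonic bases with it and was higher by 0.58 (log2, SE 0.14, adjusted p = 0.00355), and whether reads were counted by strand was not stated. Psmc2 (log2 fold change 0.17, SE 0.11, adjusted p = 0.265) and Psmc5 (log2 fold change 0.10, SE 0.08, adjusted p = 0.382) were not called.

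Among the non-ATPase subunits the largest change was in Psmd4, a ubiquitin receptor of the regulatory particle. Psmd4 was at 105, 111, 103 and 99.3 CPM for WT noCys and 138, 167 and 149 for KO noCys, without overlap (log2 fold change 0.53, SE 0.08, adjusted p = 7.68e-05). It was at 119, 115 and 119.6 CPM for WT CTR, 115, 123, 123 and 121 for KO CTR, 116 and 107 for WT noTrp and 117, 127, 109.6, 123 and 116 for KO noTrp in the other groups, so that KO noCys stood above all 18 other libraries. Psmd2, the large scaffold subunit that also binds ubiquitin and shuttle proteins, was at 127, 127, 115 and 134 CPM for WT noCys and 158, 164 and 155 for KO noCys (log2 fold change 0.34, SE 0.08, adjusted p = 0.00443). Psmd3, a lid subunit, was at 101, 119.7, 97.3 and 111 CPM for WT noCys and 119, 137 and 124 for KO noCys (log2 fold change 0.24, SE 0.09, adjusted p = 0.0464), and its lowest KO value fell below the highest WT value. Psmd2 spanned 117 to 166 and Psmd3 94.0 to 125 in the other groups. Psmd14, the deubiquitinase that removes the chain before degradation, was at 32.3, 34.7, 29.7 and 32.4 CPM for WT noCys and 31.9, 34.4 and 33.9 for KO noCys (log2 fold change 0.05, SE 0.12, adjusted p = 0.778), and the groups overlapped. It was at 28.0, 34.2 and 26.6 CPM for WT CTR, 27.4, 39.1, 32.4 and 32.5 for KO CTR, 35.7 and 26.7 for WT noTrp and 35.0, 32.3, 37.2, 35.6 and 36.9 for KO noTrp elsewhere. Psmd7, which pairs with Psmd14 in the lid, had the lowest value of the regulatory genes (log2 fold change -0.07, SE 0.09, adjusted p = 0.598).

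Of the 3 assembly chaperones, Psmd9 and Psmd5 rose and Psmd10 was not called. Psmd9 was at 77.2, 99.7, 80.2 and 77.8 CPM for WT noCys and 114, 133 and 113 for KO noCys and rose without overlap (log2 fold change 0.52, SE 0.14, adjusted p = 0.00824). Psmd5 was at 25.5, 26.1, 19.6 and 24.3 CPM for WT noCys and 24.9, 35.9 and 32.4 for KO noCys and rose (log2 fold change 0.39, SE 0.13, adjusted p = 0.0328), although KO replicate 1 lay within the WT range. Psmd10 was at 12.7, 14.5, 10.9 and 13.1 CPM for WT noCys and 15.3, 13.8 and 11.4 for KO noCys, with no call (log2 fold change 0.07, SE 0.13, adjusted p = 0.701) and overlapping groups. In the other groups Psmd9 was at 54.7, 66.2 and 73.3 CPM for WT CTR, 65.7, 77.2, 83.8 and 92.9 for KO CTR, 112 and 99.9 for WT noTrp and 114, 129, 91.4, 97.8 and 94.2 for KO noTrp, and both WT noTrp values were above the 3 WT CTR values. Psmd5 was at 22.6, 25.4 and 21.3 CPM for WT CTR, 23.9, 28.1, 27.3 and 27.1 for KO CTR, 25.6 and 19.5 for WT noTrp and 26.9, 21.9, 27.2, 27.2 and 27.3 for KO noTrp there. Psmd10 was at 13.8, 14.8 and 11.5 CPM for WT CTR, 11.8, 14.99, 12.6 and 14.3 for KO CTR, 12.9 and 14.1 for WT noTrp and 13.6, 13.8, 13.9, 13.7 and 11.9 for KO noTrp. For both genes the ranges of these 4 groups overlapped.

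**Figure D2:**
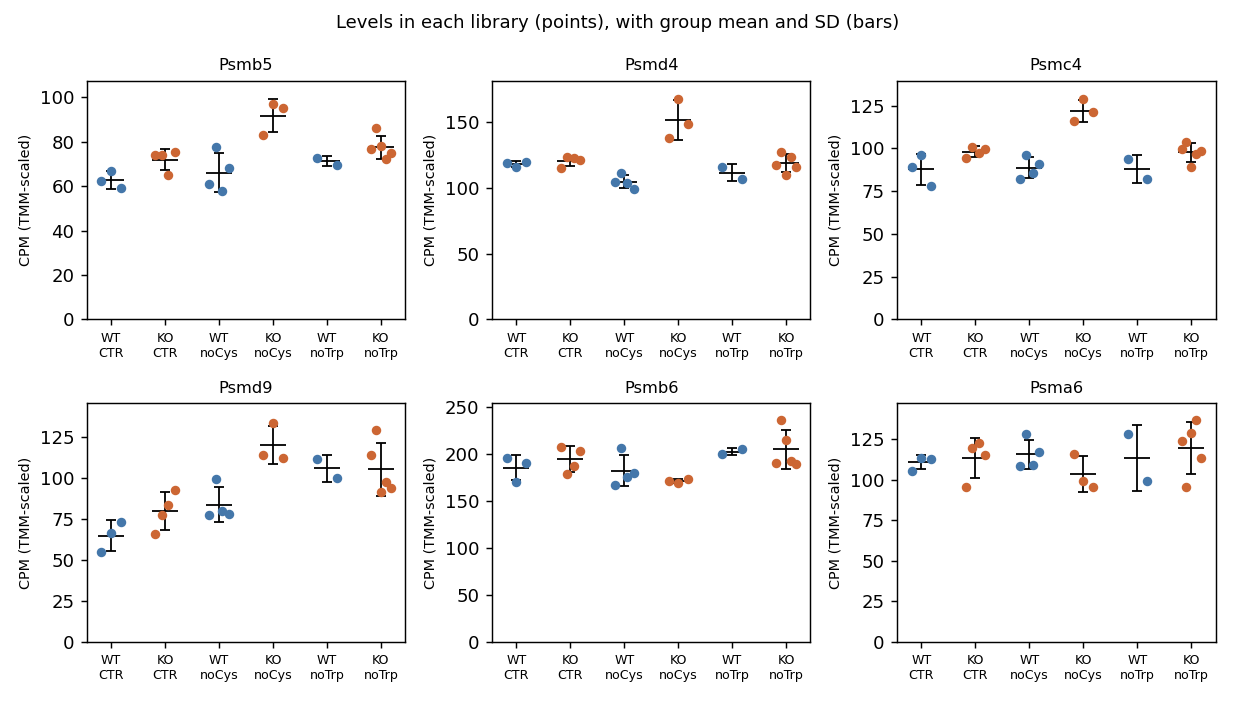
Level of 6 subunit mRNAs in each library (points, CPM scaled by TMM factors, axes from 0) by genotype and diet, WT in blue and KO in orange, with the group mean and SD as bars. The 3 KO noCys points of Psmb5, Psmd4, Psmc4 and Psmd9 lie above the 4 WT noCys points, while those of Psmb6 and Psma6 overlap them.

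The size of the called set rested in part on 1 library. Without KO noCys replicate 3, which had the highest values of Psmd4, Psmc4 and Psmd9, 4 of the 34 mRNAs were called higher (Psmb5, Psmc4, Psmd2 and Psmd4), where 8.91% of the 14285 genes then tested were. Psmd4 was then higher by 0.45 (log2, adjusted p = 0.00136) and Psmb5 by 0.43 (adjusted p = 0.0121). These 4 genes were called whichever of the 7 libraries was left out. Psmd9 lost its call only without that library (adjusted p = 0.0604). The calls of Psmd5 (without WT noCys replicate 3 or KO noCys replicates 3 or 4, adjusted p = 0.0967 to 0.215), Psmc1 (without WT noCys replicates 1, 2 or 4 or KO noCys replicates 1 or 3, 0.0502 to 0.107), Psmc3 (without WT noCys replicates 1 or 4 or KO noCys replicates 3 or 4, 0.058 to 0.143), Psmc6 (without WT noCys replicates 2, 3 or 4 or KO noCys replicates 3 or 4, 0.082 to 0.175) and Psmd3 (without WT noCys replicates 1, 3 or 4 or KO noCys replicates 3 or 4, 0.0626 to 0.222) depended on several libraries. Libraries of the other groups, which share the estimate of spread, mattered for the last 2 of these. Psmc6 was also lost without WT CTR replicates 1 or 2, KO CTR replicates 3 or 4 or KO noTrp replicates 1, 3 or 5 (adjusted p = 0.0507 to 0.0544) and Psmd3 without WT CTR replicates 1 or 2, KO CTR replicates 1, 3 or 4 or KO noTrp replicates 1, 3 or 5 (adjusted p = 0.0513 to 0.0591). The same count was 6 without WT noCys replicate 4. It was 5 without the filter on low counts, 6 with a replicate block and 6 in the fit of the compared groups only. Psmd5, Psmc1 and Psmc3 lost their calls under all 3 of these settings, Psmc6 without the filter or with the block, and Psmd3 without the filter or in the fit of the compared groups only. Psmd3 was also lost with the length trend removed, where the count was again 10. The shares of all genes for the counts of 5 and 6 are not given here. These counts therefore do not show whether the members lost calls faster than other genes. When CPM were scaled by library totals alone, 22 of 34 were called higher (6 of 14 core and 16 of 20 regulatory), where 27.4% of all genes were, and the median of all genes moved to 0.20. The median over the regulatory genes then stood at 0.43 and that over the core genes at 0.25.

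The balance between the particles can be read within each library, where no scaling between libraries enters. The mean log2 CPM over the 14 core genes minus that over the 20 regulatory genes was 0.43, 0.30 and 0.37 in the 3 KO noCys libraries. It was 0.49, 0.58, 0.53 and 0.57 in WT noCys, 0.65, 0.56 and 0.57 for WT CTR and 0.70, 0.47, 0.57 and 0.55 for KO CTR. In the noTrp groups it was 0.46 and 0.57 for WT and 0.44, 0.48, 0.61, 0.48 and 0.50 for KO. The KO noCys libraries were thus the 3 lowest of 21, although the highest of them (0.426) was close to the lowest of the other 18 (0.441, a KO noTrp library). As group means the difference was 0.363 ± 0.0652 (SD, n = 3) in KO noCys and between 0.504 ± 0.0648 (KO noTrp, n = 5) and 0.594 ± 0.0463 (WT CTR, n = 3) elsewhere. The core mean stayed between 6.73 and 6.83 over the 6 groups, whereas the regulatory mean was 6.42 in KO noCys and 6.18 to 6.31 in the others. Summed over genes, the core mRNAs held 1685 ± 29.6 CPM in KO noCys and 1637 ± 101 in WT noCys, and the regulatory mRNAs 1979 ± 99.3 and 1666 ± 72.5. When the median over members replaced the mean, the KO noCys libraries (0.28, 0.04 and 0.19) overlapped 1 KO noTrp library (0.18). This score was not tested.

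**Figure D3:**
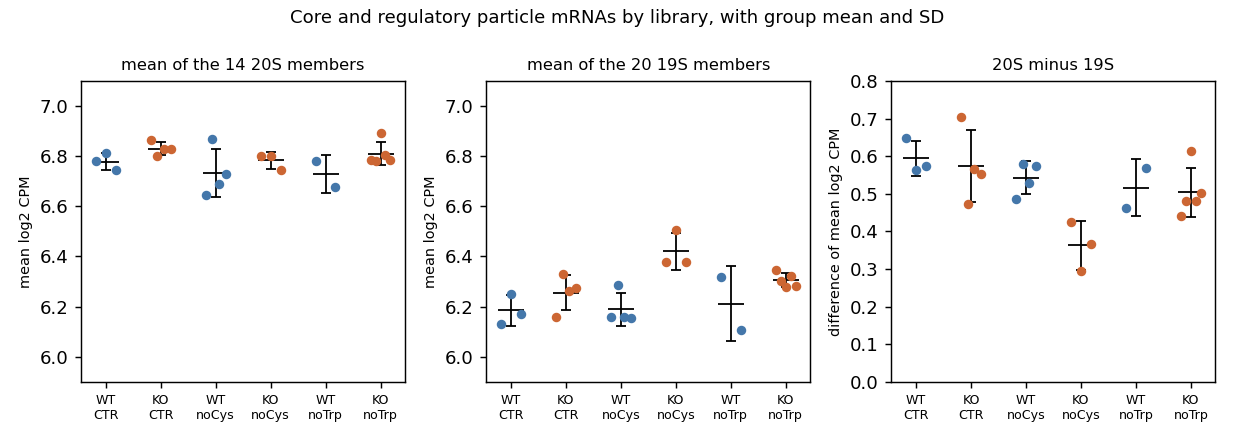
Mean log2 CPM over the 14 core mRNAs (left) and the 20 regulatory mRNAs (centre), and the core minus regulatory difference (right), in each of 21 libraries by group, with group mean and SD. The level axes are cut to show the spread. The core means are level across groups, the regulatory mean is highest in KO noCys, and the difference is lowest there, from 0.296 to 0.426.

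No member passed the test between the genotypes on the complete or the tryptophan-free diet. With the complete diet 0 of 34 mRNAs were called between KO CTR and WT CTR by edgeR, where the calls were 0.32% of all genes, 0.0696% higher and 0.251% lower. Every KO CTR library exceeded every WT CTR library in 0 of 34 members (5.39% of all genes), and the reverse held in 0 (5.53%). Of the members, 2 had an unadjusted p under 0.05 and the DESeq2 Wald test and limma-voom also called 0. The share of all genes with an unadjusted p under 0.05 is not given here or below, so such counts do not show a response of the members. The smallest unadjusted p was that of Psmd13, a lid subunit, at 59.4, 76.4 and 64.8 CPM for WT CTR and 68.2, 94.0, 74.9 and 84.9 for KO CTR (log2 fold change 0.27, SE 0.12, adjusted p = 0.477). The groups overlapped. Without tryptophan 0 of 34 were called between KO and WT (0.195% of all genes, 0.0696% higher and 0.125% lower), 2 had an unadjusted p under 0.05 and the other tools also called 0. Psmd1, the scaffold next to Psmd2, came closest, with 58.5 and 47.3 CPM for WT noTrp and 69.3, 62.1, 61.6, 76.0 and 71.0 for KO noTrp (log2 fold change 0.36, SE 0.11, adjusted p = 0.231) and KO values that were all higher. Every KO noTrp library exceeded every WT noTrp library in 6 of 34 members (4.98% of all genes), and the reverse held in 0 (4.98%). The median log2 fold change of the members was 0.06 with the complete diet and 0.09 without tryptophan.

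Within the knockout, 6 of 34 mRNAs were higher without cysteine than on the complete diet and 0 were lower, where the calls were 20.2% of all genes, 10.6% higher and 9.59% lower. Every KO noCys library exceeded every KO CTR library in 10 of 34 members (15.4% of all genes), and the reverse held in 2 (13.2%). The 6 were the core gene Psmb5 and the regulatory genes Psmc4, Psmc6, Psmd2, Psmd4 and Psmd9, all of them also called between the genotypes, a comparison that uses the same KO noCys libraries. The largest change was in Psmd9 (log2 fold change 0.59, SE 0.14, adjusted p = 0.00529), from 65.7, 77.2, 83.8 and 92.9 CPM in KO CTR to 114, 133 and 113 in KO noCys. It was followed by Psmc6 (log2 fold change 0.36, SE 0.11, adjusted p = 0.0254) and Psmb5 (log2 fold change 0.35, SE 0.10, adjusted p = 0.016), whose groups did not overlap either. The median was 0.18 over the regulatory genes and -0.09 over the core genes. Without KO noCys replicate 3 the count was 1 of 34, and without KO CTR replicate 1, 3 or 4, or KO noCys replicate 4, it was 4. The shares of all genes in these fits are not given here, so the drop is not read as a result about the members. Psmb5 lost its call without KO CTR replicate 3 or KO noCys replicates 3 or 4 (adjusted p = 0.0549 to 0.0877) and Psmc6 without KO CTR replicates 1, 3 or 4 or KO noCys replicates 3 or 4 (0.0531 to 0.123). Both were also lost without the filter on low counts, where the count was 1 of 34, and Psmc6 with a replicate block too. With library totals alone 11 were called higher, where 16.6% of all genes were, and the median of all genes moved to 0.13 beside a members' median of 0.16.

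Removal of tryptophan, an essential amino acid that neither can make, was compared next. In the knockout 0 of 34 mRNAs were called between noTrp and CTR by edgeR (1.87% of all genes, 0.779% higher and 1.09% lower). An unadjusted p under 0.05 was found for 5, with 3 calls from DESeq2 and 2 from limma-voom. The shares of all genes beside these counts are not given here. Psmd13 came closest (log2 fold change 0.35, SE 0.10, adjusted p = 0.0853), at 106, 118, 107, 91.9 and 89.5 CPM in KO noTrp against 68.2, 94.0, 74.9 and 84.9 in KO CTR. Every KO noTrp library exceeded every KO CTR library in 1 of 34 members (3.17% of all genes), and the reverse held in 2 (3.17%).

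In WT 3 of 34 were called between noTrp and CTR (3.19% of all genes, 1.7% higher and 1.5% lower), all in the regulatory particle. Psmd9 rose from 54.7, 66.2 and 73.3 to 112 and 99.9 (log2 fold change 0.71, SE 0.17, adjusted p = 0.0249) and Psmd13 from 59.4, 76.4 and 64.8 to 104 and 95.5 (log2 fold change 0.58, SE 0.14, adjusted p = 0.0308). Psmd11, a lid subunit, fell from 113, 91.2 and 113 to 68.5 and 68.4 (log2 fold change -0.63, SE 0.14, adjusted p = 0.0184). With 2 libraries in WT noTrp these 3 calls were all lost without WT noTrp replicate 1 or WT CTR replicate 1 and in part without WT CTR replicate 2 or 3 (adjusted p = 0.0519 to 0.187). Limma-voom and the fit of the compared groups only called 0 and DESeq2 called 4, 2 higher and 2 lower. Psmd13 also lost its call with a replicate block, with or without removal of the length trend. Psmd13 shares 342 exonic bases with the antisense gene Sirt3, whose own difference was 0.22 (log2, SE 0.12, adjusted p = 0.342). Every WT noTrp library exceeded every WT CTR library in 7 of 34 members (15.3% of all genes), and the reverse held in 5 (15.3%).

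In WT mice, which can make cysteine, its removal from the diet was followed by 0 calls among the 34 by edgeR (0.661% of all genes, 0.39% higher and 0.271% lower). Every WT noCys library exceeded every WT CTR library in 2 of 34 members (9.15% of all genes), and the reverse held in 2 (7.25%). DESeq2 and limma-voom called 1 each, and 4 had an unadjusted p under 0.05. Psmd11 came closest, at 113, 91.2 and 113 CPM in WT CTR and 72.7, 84.8, 89.9 and 65.96 in WT noCys, lower in every WT noCys library (log2 fold change -0.44, SE 0.11, adjusted p = 0.074). Its level was 101, 85.1, 93.5 and 85.0 CPM for KO CTR, 80.3, 100.4 and 83.9 for KO noCys and 79.5, 74.3, 77.0, 74.5 and 79.2 for KO noTrp. WT CTR held the highest group mean of Psmd11, and this gene, unlike most regulatory members, was not highest in KO noCys. Direct comparison of the 2 depleted diets in the knockout gave 2 calls by edgeR, both higher without cysteine (13.9% of all genes, 7.17% higher and 6.75% lower). Every KO noCys library exceeded every KO noTrp library in 5 of 34 members (10% of all genes), and the reverse held in 2 (9.55%). The called genes were Psmd4 (log2 fold change 0.35, SE 0.08, adjusted p = 0.00484) and Psmc4 (log2 fold change 0.32, SE 0.08, adjusted p = 0.013), and both lost the call without KO noCys replicate 3 (adjusted p = 0.0658 and 0.0976). Psmc4 also lost it without the filter on low counts. DESeq2 called these 2 genes and Psmb6, which was lower without cysteine, and limma-voom called these 2 and Psmb5, which was higher (Psmb6 and Psmb5 are named after their values were seen).

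Whether the response to the diet differed between the genotypes was tested as an interaction. For 1 of the 34 mRNAs the change from CTR to noCys differed between KO and WT, where the calls were 7.44% of all genes, 3.56% higher and 3.88% lower. This was Psmd4, which went from a median of 119 CPM to 104 in WT and from 122 to 149 in KO (log2 fold change 0.50, SE 0.11, adjusted p = 0.0112). The call was kept whichever of the 21 libraries was left out, with log2 differences of 0.42 to 0.57. It was lost when genes were not filtered on low counts. Psmd4 was also the 1 member for which the KO against WT difference was larger without cysteine than without tryptophan (log2 fold change 0.44, SE 0.12, adjusted p = 0.0297), beside 6.35% of all genes, 3.32% higher and 3.03% lower. That call was lost in 6 of 21 fits, without WT noCys replicates 1 or 4, KO noCys replicate 3, WT noTrp replicate 1 or KO noTrp replicates 3 or 5 (adjusted p = 0.0505 to 0.119), and with limma-voom, no filter on low counts, a replicate block or the compared groups alone. For the other members called in the central comparison, including Psmb5 and Psmc4, neither difference of differences passed the test, so that a response particular to KO noCys was not shown for them.

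Over the 6 groups the members also differed in how much they varied. The range of group means was largest for Psmd9 (0.898 log2 units, highest in KO noCys and lowest in WT CTR), Psmd11 (0.621) and Psmd13 (0.617, highest in KO noTrp), and smallest for Psmd10 (0.0871). The median range was 0.177 over the core genes and 0.305 over the regulatory genes, beside median within-group SDs of 0.116 and 0.119 log2 units. KO noCys held the highest group mean for 15 of 20 regulatory and 2 of 14 core genes (Psmb4 and Psmb5), and the lowest for 0 and 3 (Psma3, Psma6 and Psmb6). This order of means is a description and was not tested.

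**Figure D4:**
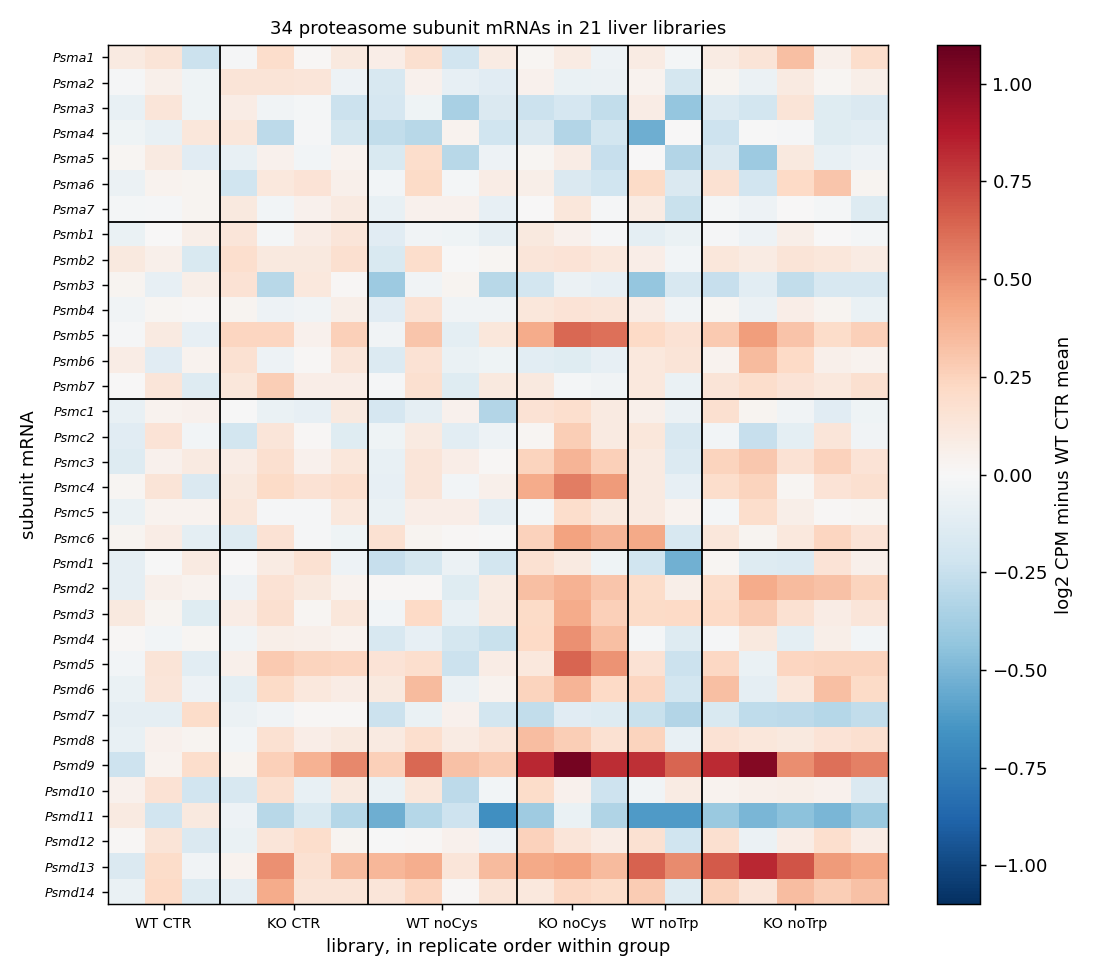
Log2 CPM of the 34 subunit mRNAs (rows, grouped into alpha ring, beta ring, ATPases and non-ATPases by black lines) in 21 libraries (columns, grouped by genotype and diet), relative to the mean of the 3 WT CTR libraries, red higher and blue lower. Psmb5 and a block of regulatory genes are red in KO noCys, Psmd9 and Psmd13 are red in the noTrp groups as well, and Psmd11 is blue in most libraries outside WT CTR.

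The regions before the start sites of the members with the largest changes are shown here so that the sequences can be set beside the values. RefSeq windows of 300 bases (250 before and 50 after the start site, build GRCm38.p6) were available for 28 of the 34 genes. The 250 bases before the start site of Psmb5, Psmd9, Psmd4 and Psmc4, the genes that rose most, are printed 5′ to 3′ on the strand of the gene, with matches to the motifs searched in capitals. The genes lie on chromosome 14 at 54614119-54618022 (Psmb5, ENSMUSG00000022193), chromosome 5 at 123169413-123250131 (Psmd9, ENSMUSG00000029440), chromosome 3 at 95032694-95042614 (Psmd4, ENSMUSG00000005625) and chromosome 7 at 28041707-28050101 (Psmc4, ENSMUSG00000030603) in the GENCODE annotation. The printed stretches lie at chr14:54617996-54618245 (minus strand), chr5:123227940-123228189 (plus), chr3:95042615-95042864 (minus) and chr7:28050093-28050342 (minus).
Psmb5: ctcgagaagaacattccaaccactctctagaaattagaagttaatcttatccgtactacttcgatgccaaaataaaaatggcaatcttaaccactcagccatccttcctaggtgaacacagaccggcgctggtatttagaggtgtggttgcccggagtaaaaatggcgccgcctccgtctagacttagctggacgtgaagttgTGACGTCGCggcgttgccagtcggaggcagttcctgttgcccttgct
Psmd9: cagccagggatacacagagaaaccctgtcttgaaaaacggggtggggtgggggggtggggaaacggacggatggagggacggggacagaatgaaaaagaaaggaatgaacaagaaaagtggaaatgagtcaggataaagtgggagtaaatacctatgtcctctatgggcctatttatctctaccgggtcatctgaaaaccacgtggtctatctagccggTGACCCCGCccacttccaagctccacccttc
Psmd4: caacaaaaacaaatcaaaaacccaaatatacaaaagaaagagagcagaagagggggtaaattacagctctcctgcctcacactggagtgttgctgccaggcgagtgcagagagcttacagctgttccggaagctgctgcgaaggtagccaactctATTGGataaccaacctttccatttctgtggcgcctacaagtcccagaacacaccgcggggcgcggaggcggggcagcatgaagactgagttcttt
Psmc4: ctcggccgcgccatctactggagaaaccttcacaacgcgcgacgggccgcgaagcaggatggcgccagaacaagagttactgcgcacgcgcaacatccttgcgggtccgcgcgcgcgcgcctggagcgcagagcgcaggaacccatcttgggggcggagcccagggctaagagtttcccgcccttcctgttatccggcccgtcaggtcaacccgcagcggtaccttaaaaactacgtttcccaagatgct
Both strands were searched. TGACNNNGC, the core of the antioxidant response element that NRF1 and NRF2 are known to bind, was found in 5 of 28 members and in 13.99% of all genes with a window. The 5 were Psmb5, Psmb6, Psmc6, Psmd9 and Psmd12, of which 3 rose in KO noCys and Psmb6 and Psmd12 were not called. In Psmb5 it began 47 bases and in Psmd9 31 bases before the start site. TGAGNNNGC, a variant of the same element, was found in 11 of 28 members and in 19.8% of all genes with a window, and CCAAT, the NF-Y box, in 11 of 28 members and in 41.1% of all genes with a window, with a match on the reverse strand (ATTGG) 95 bases before the start of Psmd4. TGATGNAA, a core of the element bound by ATF4 with C/EBP factors, was found in 1 of 28 members and in 4.51% of all genes with a window, Psmd13. Psmc4, with a log2 fold change of 0.46 beside 0.47 in Psmb5, held none of the 4. The motifs that begin with TGA cannot match at the same start, and overlaps of matches elsewhere were not separated. A match describes letters and not a binding site.

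The inducible catalytic subunits were lower. Psmb8, Psmb9 and Psmb10 replace Psmb5, Psmb6 and Psmb7 in the immunoproteasome, a form of the core known for making peptides for antigen presentation, and 3 of 3 fell in KO noCys against WT noCys, where 13.4% of all genes did. Psmb8 was at 23.5, 25.2, 25.1 and 27.2 CPM for WT noCys and 7.67, 6.34 and 7.39 for KO noCys (log2 fold change -1.83, SE 0.24, adjusted p = 2.02e-05). Psmb9 was at 16.0, 16.7, 18.1 and 22.2 CPM for WT noCys and 8.46, 9.10 and 6.56 for KO noCys (log2 fold change -1.19, SE 0.28, adjusted p = 0.00418) and Psmb10 at 49.1, 45.8, 43.0 and 53.7 CPM for WT noCys and 27.4, 22.0 and 23.3 for KO noCys (log2 fold change -0.99, SE 0.15, adjusted p = 8.28e-05). None of the 3 overlapped between the groups (18.1% of all genes were lower in every KO noCys library), and all 3 calls held in each of the 7 fits that left out 1 library. In WT CTR the 3 genes were at 22.0 to 25.2, 22.0 to 22.3 and 48.0 to 52.4 CPM. WT noTrp replicate 1 was low for a WT library, at 13.0, 9.25 and 39.6 CPM, beside 24.8, 21.1 and 54.8 in replicate 2. In KO CTR the 3 genes were at 10.3 to 22.8, 9.60 to 20.3 and 37.3 to 56.0 CPM, and in KO noTrp at 11.6 to 17.6, 8.04 to 14.7 and 39.9 to 57.9. The response to cysteine removal differed between genotypes for Psmb8 (log2 fold change -1.38, SE 0.33, adjusted p = 0.0146) and Psmb10 (log2 fold change -0.86, SE 0.21, adjusted p = 0.0161). Both of these calls were lost without KO noCys replicate 3 (adjusted p = 0.0584 and 0.0645), and that of Psmb10 with library totals alone. Psmb8 and Psmb9 are strongly expressed by immune cells, and the 7 immune markers (among them the Kupffer cell marker Clec4f, the most abundant) summed to 53.1 to 61.1 CPM in KO noCys and 54.1 to 92.6 in WT noCys, ranges that overlap. None of the 3 defining macrophage and leukocyte markers Cd68, Adgre1 and Ptprc was at 0 in any library. Adgre1 was lower without overlap, at 3.15 to 3.61 CPM in KO noCys against 4.37 to 5.95 in WT noCys. Cd68 and Ptprc overlapped between these groups. The part of cell composition in the fall was not tested.

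**Figure D5:**
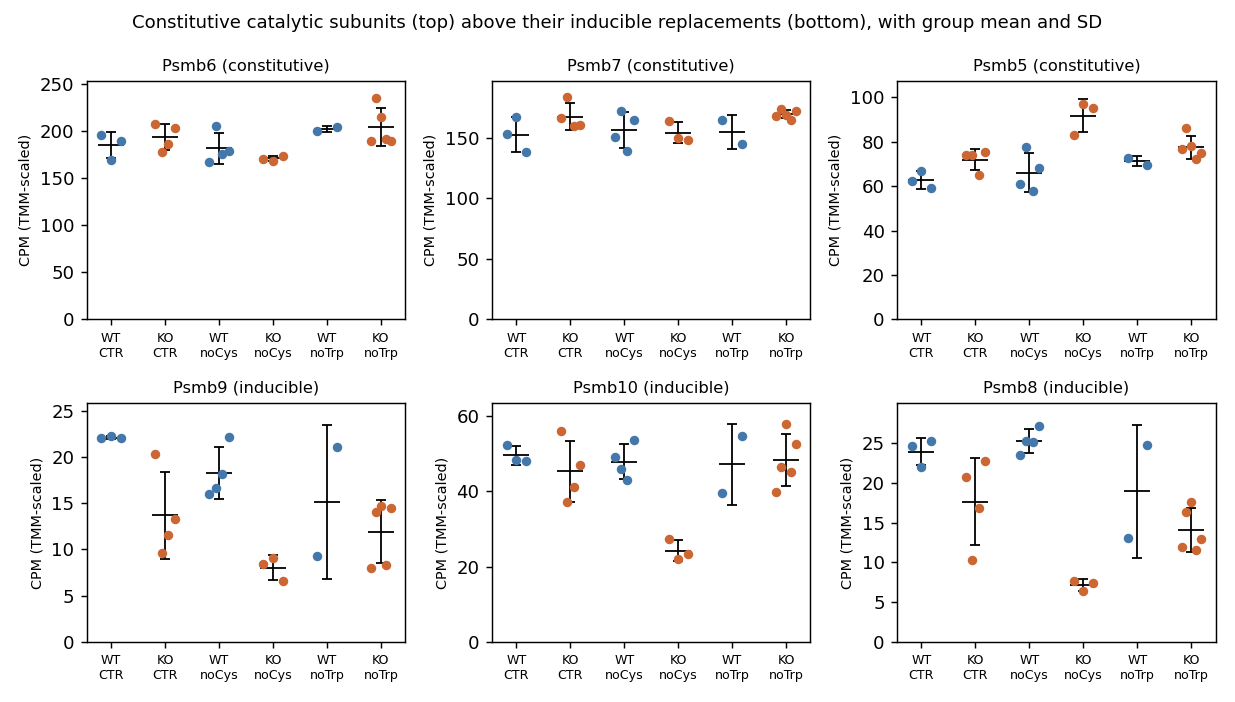
Level in each library (CPM, axes from 0) of the constitutive catalytic subunits Psmb6, Psmb7 and Psmb5 (top) and of the inducible subunits that replace them, Psmb9, Psmb10 and Psmb8 (bottom), by genotype and diet, with group mean and SD. In KO noCys Psmb5 is high while Psmb8, Psmb9 and Psmb10 are at 6.34 to 27.4 CPM, each below all WT noCys values of the same gene (WT in blue, KO in orange).

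The other pathway genes split in direction. Of 34 partners reported here, 33 were tested and 12 were called between KO noCys and WT noCys, 5 higher and 7 lower, where the calls were 28.2% of all genes, 14.8% higher and 13.4% lower, so that the share was near that of all genes. The interferon-inducible activator subunits Psme1 (log2 fold change -0.34, SE 0.12, adjusted p = 0.0397) and Psme2 (log2 fold change -0.49, SE 0.11, adjusted p = 0.00194) fell, as did Pomp, the chaperone that matures the core (log2 fold change -0.40, SE 0.10, adjusted p = 0.00668), and Sem1, a small regulatory subunit (log2 fold change -0.51, SE 0.11, adjusted p = 0.00211). These 4 calls were lost when CPM were scaled by library totals alone, at log2 differences of -0.13, adjusted p = 0.43 for Psme1, -0.27, adjusted p = 0.0895 for Psme2, -0.19, adjusted p = 0.213 for Pomp and -0.30, adjusted p = 0.0681 for Sem1. Psme1 was also lost without WT noCys replicates 1 or 2 or KO noCys replicates 3 or 4 (adjusted p = 0.0794 to 0.162), without the filter on low counts and with a replicate block. Adrm1, the ubiquitin receptor beside Psmd4, rose (log2 fold change 0.40, SE 0.12, adjusted p = 0.0194), from 63.7, 58.5, 55.2 and 58.4 CPM to 72.9, 86.5 and 73.4. Of 4 shuttle factors that carry ubiquitylated proteins to the proteasome, 2 rose, namely Rad23b (log2 fold change 0.26, SE 0.09, adjusted p = 0.0471) and Ubqln1 (log2 fold change 0.27, SE 0.08, adjusted p = 0.0118). Vcp, the segregase that extracts substrates and helps process NRF1, rose too (log2 fold change 0.29, SE 0.08, adjusted p = 0.0108). Rps27a, which encodes a ubiquitin fused to a ribosomal protein, rose (log2 fold change 0.61, SE 0.12, adjusted p = 0.000967), and the polyubiquitin gene Ubb was not called. Adrm1, Vcp and Ubqln1 lost their calls without KO noCys replicate 3 (adjusted p = 0.126, 0.0599 and 0.0578), and Rad23b in all 7 fits that left out 1 library of these groups (0.0629 to 0.153) and without WT CTR replicates 1, 2 or 3, KO CTR replicates 3 or 4 or KO noTrp replicates 1, 3 or 5 (adjusted p = 0.0504 to 0.0557). Rps27a kept its call in those 7 fits. Without the filter on low counts Vcp, Ubqln1 and Rad23b lost their calls, and Rad23b also did with a replicate block.

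The mRNAs of the factors known to control the subunit genes were not called. Nfe2l1 was at 155, 133, 152 and 151 CPM for WT noCys and 144, 137 and 159.8 for KO noCys (log2 fold change -0.00722, SE 0.12, adjusted p = 0.969) and Nfe2l2, which encodes NRF2, at 55.8, 55.3, 48.5 and 57.2 CPM for WT noCys and 43.0, 50.1 and 60.2 for KO noCys (log2 fold change -0.08, SE 0.16, adjusted p = 0.725). With library totals alone the values were 0.21 and 0.14, also without a call. Both factors are regulated mainly at the protein level, which these data do not measure. Of the tissue-restricted core subunits, Psma8 was at 0.232 to 1.35 CPM over the 21 libraries and was not called, and Psmb11 did not pass the filter on low counts.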

How the data were processed

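RNA from 21 mouse livers was poly(A) selected and sequenced in pairs by the study. The deposited file holds raw gene counts, which the authors made by aligning reads with HISAT2 2.1.0 to GRCm38 and counting with HTSeq 0.11.0. The annotation release and the strand setting are not given in the sources used here, so overlapping antisense genes may share reads. A further column (1) had no counterpart among the samples and was left aside.

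Symbols came from GENCODE M21. The member set, whose rule uses symbols alone, and the gene lists were chosen with earlier results of these data known. Genes were filtered with filterByExpr (minimum count 10, minimum total 15), scaled by TMM and tested in 1 fit of 6 groups with edgeR 4.0.16 (R 4.3.3; quasi-likelihood F test, two-sided, Benjamini-Hochberg over 14370 genes, threshold 0.05), and every adjusted p is from this test unless another tool is named. The scripts were tested on simulated data. Genes were named by rule: in KO noCys against WT noCys the 2 called members per subunit class with the largest change, then Psmb5, Psmb6, Psmb7, Psmd4, Psmd14, Psmd5, Psmd9 and Psmd10 by role, elsewhere up to 3 called members with the largest change, or else the one with the smallest p, and the 5 highest and 2 lowest levels per kilobase. Other members were named after their values were seen. Partner genes called in the first comparison were named too, and some listed genes are not reported here. Alternatives were DESeq2 1.42.0, limma-voom (limma 3.58.1), RLE factors, library totals, no filter, a replicate block, a length trend, the compared groups alone and each library left out.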

Additional observations from a re-analysis of the deposited data

Results flagged for a closer look

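Single libraries stood apart from their group by Dixon's test in 5 of 99 groups of values examined, where chance alone flags about 1 in 20. Psmb5 was at 64.9 CPM in KO CTR replicate 3, where the other 3 libraries of the group were at 73.9 to 75.3. Psmd10 was at 11.9 CPM in KO noTrp replicate 5, where the other 4 libraries of the group were at 13.6 to 13.9. Psmd5 was at 21.9 CPM in KO noTrp replicate 2, where the other 4 libraries of the group were at 26.9 to 27.3. Psmd9 was at 99.7 CPM in WT noCys replicate 2, where the other 3 libraries of the group were at 77.2 to 80.2. Ubqln1 was at 131 CPM in KO noTrp replicate 2, where the other 4 libraries of the group were at 146 to 152. The library high for Psmd9 belongs to the comparison group of KO noCys, and the KO noCys values were above it.

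Effects of genotype that differed between diets were found by the interaction tests of edgeR. The change from CTR to noCys differed between KO and WT for Psmd4 (log2 fold change 0.50, SE 0.11, adjusted p = 0.0112), Psmb8 (log2 fold change -1.38, SE 0.33, adjusted p = 0.0146), Psmb10 (log2 fold change -0.86, SE 0.21, adjusted p = 0.0161) and Sem1 (log2 fold change -0.55, SE 0.16, adjusted p = 0.0406). The genotype difference was not the same without cysteine as without tryptophan for Psmd4 (log2 fold change 0.44, SE 0.12, adjusted p = 0.0297), Psmb8 (log2 fold change -1.41, SE 0.35, adjusted p = 0.0183), Psmb10 (log2 fold change -1.03, SE 0.22, adjusted p = 0.00816), Psme2 (log2 fold change -0.56, SE 0.16, adjusted p = 0.037) and Rps27a (log2 fold change 0.68, SE 0.18, adjusted p = 0.0268). With single libraries left out, the calls of the first kind that were lost were that of Psmb8 without KO noCys replicate 3 (adjusted p = 0.0584), that of Psmb10 without KO noCys replicate 3 (adjusted p = 0.0645) and that of Sem1 without WT CTR replicates 1 or 2, KO CTR replicates 1, 3 or 4, WT noCys replicates 2 or 3 or KO noCys replicates 1 or 3 (adjusted p = 0.059 to 0.129). Those of the second kind were that of Psmd4 without WT noCys replicates 1 or 4, KO noCys replicate 3, WT noTrp replicate 1 or KO noTrp replicates 3 or 5 (adjusted p = 0.0505 to 0.119), that of Psmb8 without KO noCys replicate 3 or WT noTrp replicate 1 (adjusted p = 0.0677 to 0.114), that of Psmb10 without WT noTrp replicate 1 (adjusted p = 0.0661), that of Psme2 without WT noCys replicates 1, 2 or 3, KO noCys replicates 3 or 4, WT noTrp replicate 1 or KO noTrp replicates 2, 3 or 5 (adjusted p = 0.0515 to 0.227) and that of Rps27a without KO noCys replicate 3 or WT noTrp replicate 1 (adjusted p = 0.0749 to 0.114). Other settings also ended some of these calls. Of the first kind, Psmd4 was lost without the filter on low counts, Psmb10 with library totals alone, and Sem1 with library totals alone, without the filter or with a replicate block. Of the second kind, Psmd4 was lost with limma-voom, without the filter, with a replicate block and in the fit of the compared groups only, Psmb8 with a replicate block, Psme2 with library totals alone, without the filter, with a replicate block and in the fit of the compared groups only, and Rps27a with limma-voom and in the fit of the compared groups only.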

How the results depend on the processing

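Of 1680 values of named genes under alternatives, 1478 kept direction and side of the threshold, 181 lost the call, 4 gained it and 17 changed sign. Where no value shows why a result changed, the cause was not tested. Where no share of all genes stands beside a count of calls, the count does not show whether the members differed from other genes. With library totals alone, where the median of all genes moved to 0.20 on the log2 scale in KO noCys against WT noCys, 22 members were called there (34.3% of all genes), 11 in KO noCys against KO CTR (22.5%), 3 in the interaction (8.20%) and 4 in the genotype effect without cysteine against that without tryptophan (8.74%). The members' median, with that of all genes in parentheses, was 0.34 (0.200) in KO noCys against WT noCys, 0.123 (0.061) in KO CTR against WT CTR, 0.16 (0.132) in KO noCys against KO CTR, 0.0908 (0.0883) in WT noTrp against WT CTR, 0.148 (0.0829) in KO noCys against KO noTrp, 0.215 (0.159) in the genotype by cysteine interaction and 0.226 (0.192) in the genotype effect without cysteine against that without tryptophan. Without the filter on low counts, which tests more genes, the calls were 5 in KO noCys against WT noCys, 1 in KO noCys against KO CTR, 1 in KO noCys against KO noTrp and 0 in the interaction and in the genotype effect between diets. In the fit of the compared groups only, the calls were 6 in KO noCys against WT noCys and 0 in WT noTrp against WT CTR and in the genotype effect between diets. Limma-voom called 2 in KO noTrp against KO CTR, 1 in WT noCys against WT CTR and 0 in WT noTrp against WT CTR and the genotype effect between diets. DESeq2 called 3 in KO noTrp against KO CTR and 1 in WT noCys against WT CTR.

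The core minus regulatory difference, taken over medians, was 0.488 in WT CTR, 0.446 in KO CTR, 0.456 in WT noCys, 0.17 in KO noCys, 0.331 in WT noTrp and 0.388 in KO noTrp, and with the assembly chaperones left out it was 0.342 in WT CTR, 0.339 in KO CTR, 0.31 in WT noCys, 0.147 in KO noCys, 0.300 in WT noTrp and 0.282 in KO noTrp. With principal transcript lengths, chosen after seeing the data, the core to regulatory ratio was 2.37.

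With 1 library left out, KO noCys replicate 1 brought 3 calls in KO noCys against KO noTrp, KO CTR replicate 2 brought 1 call in KO noTrp against KO CTR and WT noTrp replicate 2 brought 2 calls in the genotype effect between diets. In all, leaving out 1 library gave call counts of 4 to 11 in KO noCys against WT noCys, 0 in every fit in KO CTR against WT CTR, 0 in every fit in KO noTrp against WT noTrp, 1 to 6 in KO noCys against KO CTR, 0 to 1 in KO noTrp against KO CTR, 0 in every fit in WT noCys against WT CTR, 0 to 3 in WT noTrp against WT CTR, 0 to 3 in KO noCys against KO noTrp, 1 in every fit in the genotype by cysteine interaction and 0 to 2 in the genotype effect without cysteine against that without tryptophan. The medians were 0.101 to 0.166 in KO noCys against WT noCys, 0.045 to 0.0872 in KO CTR against WT CTR, -0.0107 to 0.18 in KO noTrp against WT noTrp, 0.00344 to 0.0943 in KO noCys against KO CTR, -0.00824 to 0.0208 in KO noTrp against KO CTR, -0.0413 to 0.0306 in WT noCys against WT CTR, -0.115 to 0.0979 in WT noTrp against WT CTR, 0.0503 to 0.108 in KO noCys against KO noTrp, 0.0323 to 0.12 in the genotype by cysteine interaction and -0.0192 to 0.138 in the genotype effect without cysteine against that without tryptophan, and the core minus regulatory difference 0.5677 to 0.61 in WT CTR, 0.53 to 0.608 in KO CTR, 0.53 to 0.561 in WT noCys, 0.332 to 0.397 in KO noCys, 0.462 to 0.57 in WT noTrp and 0.477 to 0.519 in KO noTrp.

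Same-numbered libraries did not deviate together as a rule over 41 pairs (correlations -0.49 to 0.42, median -0.07, 12 over 0.1), so the numbers were not taken as pairs. Some did: the highest value, 0.42, was between replicate 1 of WT noTrp and of KO noTrp. Replicate 1 of KO noTrp also correlated with that of WT noCys (0.28) and of KO noCys (0.27). What lies behind the higher values was not tested. With the replicate number as a block, 6 members were called in KO noCys against WT noCys and 0 in the genotype effect between diets, where 0 were also called with the length trend removed as well. Among the named members, the block also ended the calls of Psmc6 in KO noCys against KO CTR and of Psmd13 in WT noTrp against WT CTR.

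Values near 0 changed sign without a call in either direction. They were 0.126 (library totals alone) for Psmb6, 0.185 (library totals alone), 0.00624 (replicate block), 0.0229 (without WT noCys replicate 2) and 0.00435 (without KO noCys replicate 4) for Psmb7, -0.0243 (limma-voom with sample quality weights) and -0.0201 (without KO noCys replicate 1) for Psmd10, 0.0276 (limma-voom with sample quality weights), 0.208 (library totals alone), 0.00188 (no filter on low counts), 0.0109 (without WT noCys replicate 1), 0.0049 (without WT noCys replicate 3), 0.00163 (without WT noCys replicate 4), 0.0081 (without KO noCys replicate 1) and 0.0416 (without KO noCys replicate 3) for Nfe2l1 and 0.138 (library totals alone) and 0.0247 (without KO noCys replicate 1) for Nfe2l2. The lowest values with 1 library left out were -0.0775 for Psmb7, -0.0718 for Nfe2l1 and -0.216 for Nfe2l2.

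Groups of 2 to 5 libraries and 99 reads for the lowest member limit which small differences can be told from 0. With 1 library left out, WT noTrp rested on 1 library, whose spread was assumed to equal that of the other groups.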

Other observations

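The partner genes of the proteasome were also read in the comparisons within the knockout, where the genes named here were chosen after their values were seen. In KO noCys against KO CTR 7 of 33 partner genes were called, 2 higher and 5 lower, where 10.6% of all genes were called higher and 9.59% lower. The lower genes included the inducible subunits Psmb8 (log2 fold change -1.30, SE 0.24, adjusted p = 0.000795) and Psmb10 (log2 fold change -0.91, SE 0.15, adjusted p = 0.000293) and the activator subunits Psme1 (log2 fold change -0.47, SE 0.12, adjusted p = 0.00937) and Psme2 (log2 fold change -0.41, SE 0.11, adjusted p = 0.00908). The inducible subunit Psmb9, at 20.3, 9.60, 11.6 and 13.3 CPM for KO CTR and 8.46, 9.10 and 6.56 for KO noCys, was not called. The call of Psme1 was lost without KO noCys replicates 3 or 4 (adjusted p = 0.0545 to 0.0629) and that of Psme2 with library totals alone. Against KO noTrp 7 of 33 were called, again 2 higher and 5 lower, where the calls were 13.9% of all genes, 7.17% higher and 6.75% lower, and these comparisons share the KO noCys libraries.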
